A study of Mus musculus with 6 samples.

Results

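The cells described here are the MPP-3 cells of clusters 0 to 2, a subset of the bone marrow stem and progenitor cells that remained in mice carrying acute myeloid leukaemia (AML). They were chosen by the study's own annotation of each cell, in which the assigned subpopulation was MPP-3 and the cluster number was 0, 1 or 2. The rule found 1438 cells among 16822 annotated cells, and 2369 cells had the MPP-3 label across every cluster. Recipients were non-conditioned female C57BL/6J mice that carry CD45.1, aged 8 to 12 weeks. They received either PBS or 1000000 cells of C1498, a murine AML line that carries CD45.2, and were taken on day 21. The sorted population was Lin- cKit+ Sca1+ CD45.1+, so the sequenced cells were meant to be the recipient's own and not the leukaemic cells. No cells of AML replicate 2 were in the annotation, and that library has no MPP-3 values. The other libraries held 566 cells (PBS 1), 15 cells (PBS 2), 262 cells (PBS 3), 149 cells (AML 1) and 446 cells (AML 3).

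Multipotent progenitors are the cells between haematopoietic stem cells (HSC) and the progenitors committed to a lineage. MPP-2 cells are biased to megakaryocytes and red cells, MPP-3 cells to granulocytes and monocytes, and MPP-4 cells to lymphocytes. Granulocyte-monocyte output is driven by transcription factors such as PU.1, C/EBPalpha and IRF8, and the first visible products are the proteases and peroxidase of the primary granules. Interferons, NF-kB signals and cytokines are known to push early progenitors toward this output.

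The label was set by the highest of 4 class scores, and in all 16822 cells the label matched the highest score. The lead of the MPP-3 score over the next one was below 0.05 in 66.8% of the 1438 cells, with a median lead of 0.0345, so the label marks a range and not a sharp boundary. Of the 12382 cells of the other classes in clusters 0 to 2, 2115 had an MPP-3 score within 0.05 of their own class. The runner-up class was HSC in 29.7% and 28.2% of the MPP-3 cells of PBS 1 and PBS 3, and in 12.8% of the cells of both AML libraries. MPP-2 was the runner-up in 25.4% and 31.7% of the PBS cells and in 57.7% and 40.4% of the AML cells. The median MPP-3 score of these cells was 0.0259 and 0.0223 in PBS 1 and PBS 3, and 0.0390 and 0.0324 in AML 1 and AML 3. The part of choosing cells by this score in the AML comparisons below was not tested.

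Levels are given in CPM, the unique molecular identifiers (UMIs) of a gene per 1000000 UMIs summed over a library's cells. In the PBS libraries, Mpo (myeloperoxidase, a primary granule enzyme) had 188 and 212 CPM in the MPP-3 cells of PBS 1 and PBS 3, against mean levels over the same libraries of 66.6 in MPP-2, 51.4 in MPP-4 and 19.8 in HSC cells. Ctsg (cathepsin G, a granule protease) had a mean of 129 in MPP-3 cells, 35.2 in MPP-2, 17.1 in MPP-4 and 5.67 in HSC cells. Both granule genes therefore matched the label. Cebpa, which encodes C/EBPalpha, had 11 in MPP-3 and 10.8 in MPP-4 cells. Csf1r, the receptor for macrophage colony-stimulating factor, had 2.95 in MPP-3 and 3.84 in MPP-4 cells. Ly86, which encodes MD-1, the partner of the receptor CD180, had 14.9 in MPP-3, 17.1 in MPP-2 and 29.1 in MPP-4 cells. In PBS recipients, then, Ly86 and Csf1r were not highest in MPP-3 cells. The classes and clusters were made from these genes, so these levels are a description and were not tested.

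**Figure D1:**
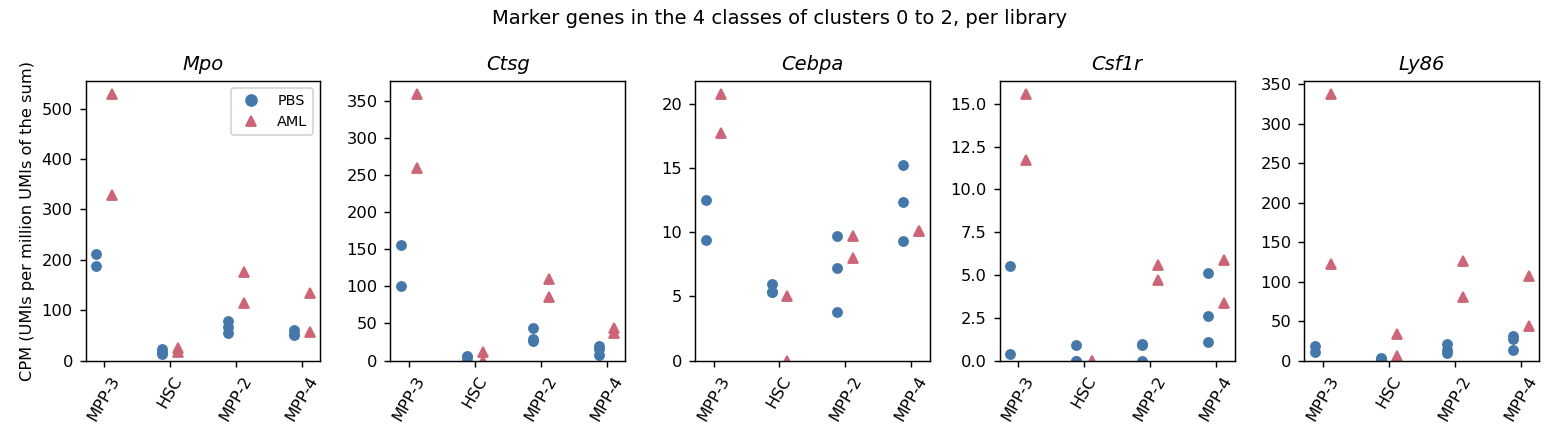
Level of each of the 5 marker genes (CPM, linear axes) in the 4 classes of clusters 0 to 2, with 1 point per library (circles PBS, triangles AML); PBS 2 is left out of the MPP-3 column because it holds 15 such cells. Mpo and Ctsg are highest in MPP-3 cells in both groups, whereas Ly86 reaches its highest level in the MPP-3 cells of AML recipients.

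Genes were also ranked by the ratio of their PBS level in MPP-3 cells to the highest level in any other class. After S100a9, with a ratio of 15.1, came Ctsg (3.66) and Mpo (3.00), followed by Ap3s1 (2.41), Clec4e (2.37), Rab44 (2.21), Lgals1 (2.20), Ly6d (2.10), Dqx1 (2.00) and Xbp1 (1.89). S100a9 is a calcium-binding protein abundant in neutrophils. It had 166 UMIs in PBS 1, 2 in PBS 3, 0 in AML 1 and 5 in AML 3, so its rank rests on 1 library. Dqx1 had 3.31 TMM-scaled CPM in PBS 1 and 46.3 in PBS 3, so it also varied more within a group than between classes.

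MPP-3 cells were 9.64% of the annotated cells of clusters 0 to 2 in PBS 1 (95% exact Clopper-Pearson interval 8.90 to 10.4%), 1.98% in PBS 2 (1.11 to 3.24%) and 7.17% in PBS 3 (6.36 to 8.06%). They were 28.0% in AML 1 (24.2 to 32.0%) and 14.9% in AML 3 (13.6 to 16.2%). Both AML libraries were above all 3 PBS libraries. The means were 6.26% ± 3.91 (SD, n = 3) and 21.4% ± 9.27 (SD, n = 2), and the difference of 15.1 percentage points had a two-sided exact permutation p = 0.1, the smallest that 3 against 2 libraries allow. The difference was 8.59 percentage points without AML 1 and 21.7 without AML 3. These intervals cover counting error only. A share does not tell more MPP-3 cells from fewer cells of the other classes.

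The phase calls of the study placed 58.8% and 60.7% of the MPP-3 cells of PBS 1 and PBS 3 in G1, against 12.1% in AML 1 and 45.1% in AML 3. G2M held 6.01% and 6.87% in PBS and 44.3% and 13.9% in AML. S held 35.2% and 32.4% in PBS and 43.6% and 41.0% in AML. PBS 2, below the minimum of 20 cells set for these shares, had 8 of its 15 cells in G1 and 7 in S (46.7%), above both AML libraries. In each phase the groups of 2 libraries did not overlap, and each two-sided exact permutation test gave p = 0.333, the smallest possible with 2 against 2 libraries (adjusted p = 0.667 over 6 shares). AML 1 stood apart in the other classes too, where 57.3% of the cells were called G2M, against 15.7%, 15.2% and 18.2% in PBS 1, PBS 3 and AML 3. It was also the shallowest library, with a median of 2302 UMIs per MPP-3 cell against 3982, 4232 and 6366 in PBS 1, PBS 3 and AML 3. The part of depth in the phase shares was not tested. Clusters 0, 1 and 2 held 41.5%, 47.9% and 10.6% of the MPP-3 cells in PBS 1 and 35.1%, 43.9% and 21.0% in PBS 3. The same clusters held 36.2%, 44.3% and 19.5% in AML 1 and 27.8%, 55.8% and 16.4% in AML 3. The groups overlapped in each cluster, and 2 against 2 libraries could not have called a difference.

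**Figure D2:**
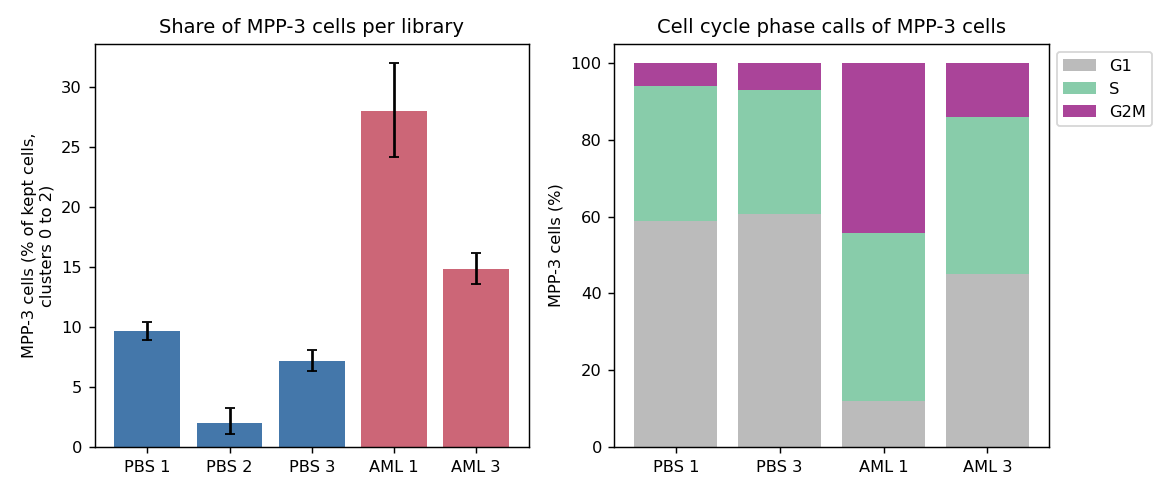
Left, MPP-3 cells as a percentage of the annotated cells of clusters 0 to 2 in each library, with 95% exact binomial intervals that cover counting error only; right, the phase calls of the MPP-3 cells as stacked percentages in the 4 libraries with at least 20 such cells. AML 1 has the largest share of MPP-3 cells (28.0%) and of G2M calls (44.3%).

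To ask which genes differed between MPP-3 cells of AML and PBS recipients, UMIs were summed per library and tested with edgeR. PBS 2 was below the minimum of 20 cells, so the comparison was of PBS 1 and PBS 3 with AML 1 and AML 3. Of 9564 genes tested, 9 rose (0.0941%) and 1 fell (0.0105%) at an adjusted p under 0.05, together 0.105% of the genes. The genes that rose were Ly86, F13a1, Ms4a4c, Ccl5, Exoc3l2, Elane, Anxa3, Irf8 and Slpi, and the gene that fell was Myl10. Without PBS 1 no gene passed, although 114 genes had an unadjusted p under 0.05. Without PBS 3, AML 1 or AML 3 the counts were 36, 50 and 549. Each of these fits has 1 library in an arm, which is assumed to vary like the pair in the other arm. With the 15 cells of PBS 2 added as another PBS library, 27 genes passed, and all 10 genes above were among them. In G1 cells, with AML 1 left out for its 18 such cells and AML 3 alone in its arm under the same assumption, 18 genes passed, and Ly86 was the only one of the 10 among them. Of 17 to 20 alternatives in which each was tested (13 for Ms4a4c), Ly86 passed in 18, F13a1 in 15, Elane in 11, Ccl5 and Myl10 in 10, Slpi in 9, Irf8 and Exoc3l2 in 8, Anxa3 in 5 and Ms4a4c in 4. The labels do not say whether each library came from 1 mouse or from pooled mice, so the p-values refer to these libraries. With so few libraries, edgeR moved each gene's spread toward that of the other genes, with 23.4 prior degrees of freedom. The p-values thus rest in large part on spread shared over genes. In sums of this kind, more cells with a transcript and more transcript per cell cannot be told apart.

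**Figure D3:**
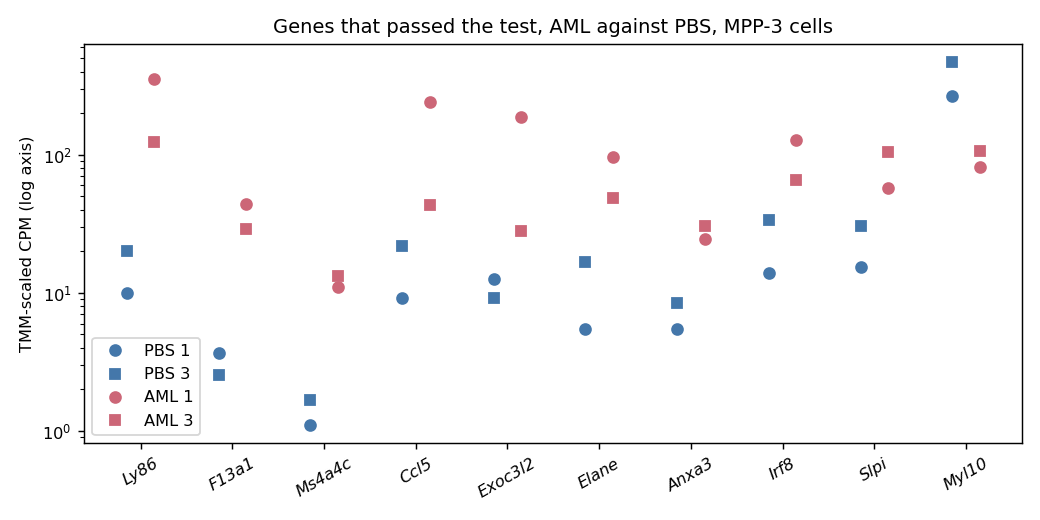
TMM-scaled CPM (log axis) of the 10 genes that passed the test, in PBS (blue) and AML (red) MPP-3 cells, with circles for replicate 1 and squares for replicate 3. For each gene the 2 AML points lie on the same side of both PBS points.

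The widest rise was that of Ly86 (ENSMUSG00000021423, chr13:37345208-37419036, plus strand, GRCm38). Its TMM-scaled level was 9.94 and 20.2 CPM in PBS 1 and PBS 3, and 356 and 123 in AML 1 and AML 3. Every AML value was above both PBS values, and the log2 fold change was 4.01 ± 0.47 (SE; edgeR, adjusted p = 6.2e-05). The share of MPP-3 cells with at least 1 Ly86 UMI was 3.00% and 4.96% in PBS 1 and PBS 3, and 40.9% and 25.1% in AML 1 and AML 3. The shallower AML library thus had the larger share. In HSC cells of the same clusters the share was 0.672% and 0.872% in the PBS libraries, at a median of 3137 and 3288 UMIs per cell. In the AML libraries it was 9.09% (2 of 22 HSC cells) and 2.14%, at 2316.5 and 3768.5 UMIs. The share was also larger in the AML libraries in the other progenitors. It was 3.49% and 6.02% in the MPP-2 cells of PBS 1 and PBS 3 and 19.5% and 15.4% in those of AML 1 and AML 3. In MPP-4 cells it was 5.83% and 7.0% in PBS and 8.91% and 19.2% in AML.

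Ly86 was low in PBS cells of clusters 0 and 1 and higher in cluster 2. In cluster 1 its level was 4.67 and 7.85 CPM for PBS, against 417 and 98.7 for AML, with a log2 fold change of 5.42 ± 0.67 (SE; edgeR within that cluster, adjusted p = 6.5e-05). In cluster 2 it had 70.6 and 70.5 in PBS and 621 and 366 in AML, with a log2 fold change of 2.75 ± 0.44 (adjusted p = 0.016, edgeR). In cluster 0 it had 3 and 1 UMIs in the PBS sums and 14 and 8 in the AML sums, and was below the filter on low counts. Whether the effect differed between clusters was not tested.

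F13a1 (ENSMUSG00000039109, chr13:36867178-37050244, minus strand), which encodes the A chain of coagulation factor XIII and marks monocytes and their progenitors, rested on fewer molecules. It had 10 and 3 UMIs in PBS 1 and PBS 3, and 16 and 96 in AML 1 and AML 3. These are TMM-scaled levels of 3.68 and 2.52 against 43.9 and 29.1 CPM, a log2 fold change of 3.32 ± 0.48 (edgeR, adjusted p = 0.0014). Irf8 (chr8:120736358-120756694), the transcription factor that directs progenitors to monocytes and dendritic cells, had levels of 14.0 and 33.6 in PBS and 129 and 66.0 in AML. Its log2 fold change was 2.01 ± 0.41 (edgeR, adjusted p = 0.044). Ms4a4c, a membrane protein of the MS4A family, was named after its values were seen because its mean level was below the limit for naming. It had 3, 2, 4 and 44 UMIs in PBS 1, PBS 3, AML 1 and AML 3 and a log2 fold change of 3.25 ± 0.64 (edgeR, adjusted p = 0.037).

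Elane (ENSMUSG00000020125, chr10:79886247-79888215, plus strand) encodes neutrophil elastase of the primary granules. It had 5.52 and 16.8 TMM-scaled CPM in PBS and 96.0 and 48.7 in AML, a log2 fold change of 2.73 ± 0.45 (edgeR, adjusted p = 0.0079). Over every cluster of MPP-3 cells, in place of clusters 0 to 2, the log2 fold change turned to -0.63. That fit also included PBS 2, which had 41 such cells, so its clusters and its libraries both differed from the main fit. Slpi, a secreted inhibitor of elastase and cathepsin G, had 15.5 and 30.3 in PBS and 57.6 and 105 in AML, with a log2 fold change of 1.99 ± 0.38 (edgeR, adjusted p = 0.033). Anxa3, an annexin of neutrophil granule membranes, had 5.52 and 8.41 in PBS and 24.7 and 30.6 in AML, with a log2 fold change of 2.12 ± 0.43 (edgeR, adjusted p = 0.044).

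Ccl5, a chemokine made by T and NK cells and by activated myeloid cells, had 9.21 and 21.9 in PBS and 241 and 43.0 in AML. Its log2 fold change was 3.12 ± 0.56 (edgeR, adjusted p = 0.021), and AML 1 set most of it. Of the other T and NK cell markers, Nkg7 had 209 and 222 in PBS and 165 and 216 in AML, and Cd3e had 0 UMIs in these libraries. The 19 genes of that list, Ccl5 included, summed to 251 and 248 CPM in PBS and 397 and 278 in AML, with 9 of them at 0 everywhere. Exoc3l2, an exocyst-related gene, had 12.5 and 9.25 in PBS and 186 and 28.1 in AML, a log2 fold change of 2.99 ± 0.58 (edgeR, adjusted p = 0.033) that again was widest in AML 1. Myl10, a myosin light chain gene, was the only gene that passed in the lower direction. It had 268 and 469 in PBS and 82.3 and 107 in AML, a log2 fold change of -1.93 ± 0.37 (edgeR, adjusted p = 0.033), and its AML levels lay below its PBS levels in each of clusters 0, 1 and 2.

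To show the regulatory DNA next to the 3 genes with the lowest p, and beside an interferon-stimulated gene, stretches of promoter from RefSeq (GRCm38.p6) are printed 5′ to 3′ on the gene's strand, ending before the first annotated start, with any of 4 searched motifs in capitals.
Ly86, chr13:37345095-37345207: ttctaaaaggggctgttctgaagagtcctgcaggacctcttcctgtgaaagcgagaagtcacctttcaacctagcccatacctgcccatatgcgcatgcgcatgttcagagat
F13a1, chr13:37050245-37050494: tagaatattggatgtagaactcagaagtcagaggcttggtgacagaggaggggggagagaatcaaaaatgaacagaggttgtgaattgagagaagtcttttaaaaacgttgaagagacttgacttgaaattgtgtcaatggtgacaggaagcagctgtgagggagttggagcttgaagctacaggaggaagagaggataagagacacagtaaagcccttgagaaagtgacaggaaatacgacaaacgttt
Elane, chr10:79886062-79886246: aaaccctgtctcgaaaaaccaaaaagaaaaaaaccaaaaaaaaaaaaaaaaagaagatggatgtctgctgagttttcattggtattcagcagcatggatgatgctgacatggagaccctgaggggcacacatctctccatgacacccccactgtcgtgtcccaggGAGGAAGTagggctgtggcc
Isg15, chr4:156200819-156201068: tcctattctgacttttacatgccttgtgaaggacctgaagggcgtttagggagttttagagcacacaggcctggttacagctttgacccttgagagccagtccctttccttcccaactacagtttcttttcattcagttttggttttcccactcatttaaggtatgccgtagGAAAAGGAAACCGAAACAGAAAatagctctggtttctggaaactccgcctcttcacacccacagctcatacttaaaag

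The motifs were searched on both strands of windows of 300 bases. They were GAGGAAGT (an ETS site of the PU.1 type, in 3.20% of 32851 promoters), the interferon-stimulated response element (GAAA, 2 bases of any kind, GAAA, in 3.44%), an ETS-IRF composite (GGAA, 2 bases of any kind, GAAA, in 2.72%) and a C/EBP site (TTGC, 2 bases of any kind, AA, in 10.8%). In Elane the capitals mark GAGGAAGT starting at position -85 from the RefSeq start. In Isg15 they mark 3 overlapping matches to the interferon-stimulated response element, at -78, -72 and -66. Of the 9 genes that rose, 7 had 9 promoters in the table. GAGGAAGT was found in 2 of these promoters, those of Elane and of the second F13a1 start, and the C/EBP site in 1, that of Slpi. Neither interferon-type motif was found in these windows. A match or its absence describes the letters only.

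Gene lists by role were then read against the background of all tested genes, of which 3.48% had an unadjusted p under 0.05 in the higher direction and 2.52% in the lower direction, while the AML levels were above both PBS levels in 17.8% and below both in 20.1%. Of 20 tested monocyte-lineage genes, 2 rose at the adjusted threshold (Ly86 and F13a1), 11 had an unadjusted p under 0.05 toward AML and 0 toward PBS, and the median log2 fold change was 0.84 against 0.004 for all tested genes. Ms4a6c, a further MS4A membrane protein, had 48.2 and 93.4 in PBS and 203 and 198 in AML without passing the adjusted test (log2 fold change 1.52 ± 0.35, edgeR, adjusted p = 0.117). Csf1r had 1, 7, 6 and 39 UMIs in PBS 1, PBS 3, AML 1 and AML 3 and did not pass (2.50 ± 0.70, adjusted p = 0.26). The number of monocyte-lineage genes with an unadjusted p under 0.05 in the higher direction was 15 of 23 without AML 1, where 2.30% of all genes had such a p, and 12 of 23 without PBS 3 (2.61% of all genes). It was 6 of 16 without AML 3, with 1 lower (10.3% of all genes), and 4 of 19 without PBS 1 (0.70%). It was 3 of 13 in cells with a score lead of at least 0.05 (2.96%).

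Among 13 tested primary granule and early granulocyte genes, 1 rose at the adjusted threshold (Elane), and the median log2 fold change was 1.08. An unadjusted p under 0.05 was found for 7 in the higher direction and 1 in the lower direction. Without AML 1, AML 3, PBS 1 or PBS 3 the median was 0.62, 0.32, 0.93 and 1.22. Over every cluster of the class, with PBS 2 included, it was 0.01. The whole list summed to 3595 and 3559 CPM in PBS 1 and PBS 3, and to 3415 and 4162 in AML 1 and AML 3. The part of choosing cells by the MPP-3 score was not tested. Ctsg had 92.1 and 167 in PBS and 274 and 361 in AML (1.32 ± 0.36, adjusted p = 0.26, edgeR), and Mpo had 171 and 227 against 559 and 330 (1.15 ± 0.37, adjusted p = 0.398). Neither passed over all 9564 genes, although their AML levels lay above both PBS levels. Prtn3, the proteinase 3 gene and the most abundant of these examples, had 1083 and 1562 in PBS and 1388 and 1667 in AML (0.21 ± 0.42, adjusted p = 0.993). Of 11 tested myeloid transcription factors only Irf8 passed. Zeb2, a repressor that acts in monocyte differentiation, had 130 and 117 in PBS and 373 and 173 in AML (1.10 ± 0.37, adjusted p = 0.461), Nfe2 of the megakaryocyte lineage had 70.7 and 60.6 against 24.7 and 44.8 (adjusted p = 0.775), and Cebpa had 11.4 and 10.1 against 21.9 and 17.9 (adjusted p = 0.876, edgeR). Spi1, which encodes PU.1, had 152 and 163 in PBS and 85.0 and 152 in AML (adjusted p = 0.961). Of 20 tested cytokine and innate receptors none passed, with 3 having an unadjusted p under 0.05 in the higher direction and 1 in the lower.

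**Figure D4:**
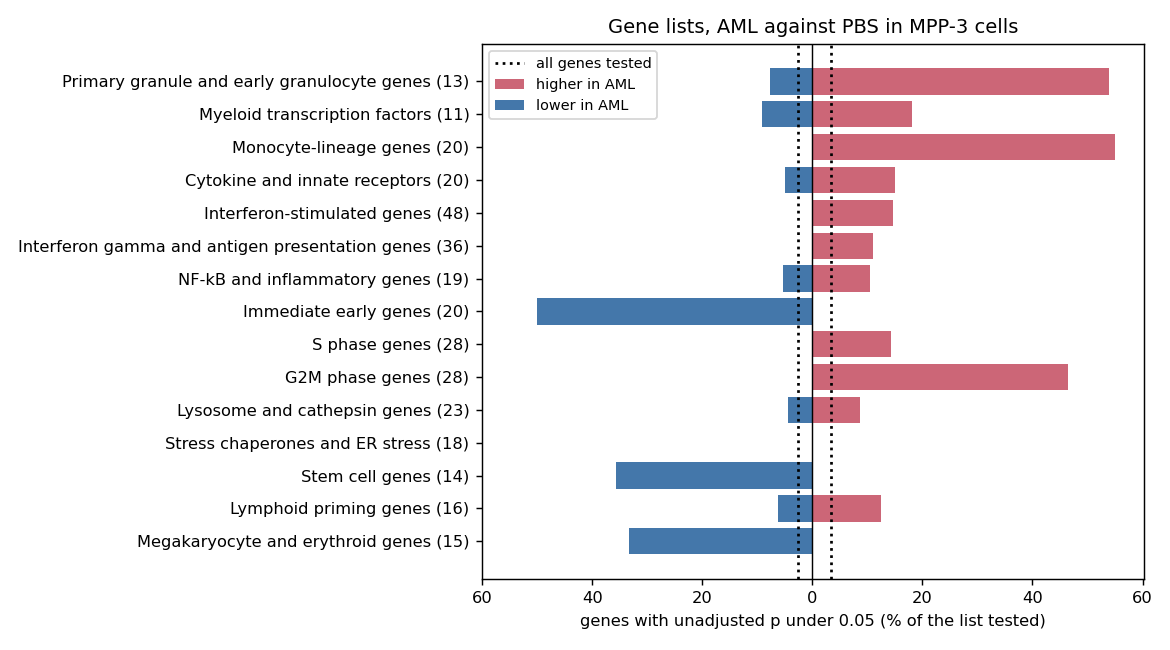
Percentage of each gene list's tested members (number in brackets) with an unadjusted p under 0.05 in the AML against PBS comparison, higher to the right and lower to the left, with dotted lines at 3.48% and 2.52% for all tested genes. Monocyte-lineage, granule and G2M phase genes extend to the right, and immediate early, stem cell and megakaryocyte-erythroid genes to the left.

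The study's question concerned inflammation. Of 48 tested interferon-stimulated genes none passed, while 7 had an unadjusted p under 0.05 in the higher direction (14.6%) and 0 in the lower direction, with a median log2 fold change of 0.24. Ifi209 had 2.95 and 4.21 in PBS and 32.9 and 15.7 in AML (2.53 ± 0.53, edgeR, adjusted p = 0.058). Ifi27l2a had 31.7 and 90.0 against 269 and 162 (1.83 ± 0.41, adjusted p = 0.092). Isg15, a ubiquitin-like protein induced by interferon whose promoter is printed above, had 92.8 and 134 in PBS and 304 and 228 in AML (1.23 ± 0.35, adjusted p = 0.26). These 3 genes shared AML levels above both PBS levels without passing the test over all genes. Irf7, the regulator of interferon production, had 65.9 and 37.0 in PBS and 27.4 and 93.2 in AML (0.39 ± 0.39, adjusted p = 0.963), so its 2 AML libraries lay on either side of PBS.

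Of 36 tested genes of the interferon gamma response and antigen presentation, Irf8 passed and 4 in all had an unadjusted p under 0.05 in the higher direction. The median was 0.08. It was -0.45 without AML 3, and 0.12, 0.07 and 0.008 without AML 1, PBS 1 or PBS 3. Over every cluster, with PBS 2 included, it was -0.22. H2-Aa, an MHC class II chain, had 14.0 and 10.1 in PBS and 11 and 40.9 in AML, and Cd74, the class II invariant chain, had 46.0 and 43.7 against 24.7 and 178. Both therefore rested on AML 3. Of 19 tested NF-kB and inflammatory genes Ccl5 passed, and the median was 0.04. Nfkb1 had 64.8 and 80.7 in PBS and 104 and 86.0 in AML (0.37 ± 0.32, adjusted p = 0.954). Ccl4, a chemokine, had 322 and 107 in PBS and 49.4 and 94.7 in AML (-1.49 ± 0.42, edgeR, adjusted p = 0.26). Nfkb2, Cxcl9 and Cxcl10 were below the filter. Cxcl10, an interferon-induced chemokine, had 93 UMIs in AML 3 and 7, 0 and 2 in PBS 1, PBS 3 and AML 1. Cxcl9 had 12 UMIs in AML 3 and 0 in the other 3 libraries.

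Immediate early genes, which respond to stimulation within minutes and also to cell dissociation, did not pass singly, but 10 of 20 had an unadjusted p under 0.05 in the lower direction and 0 in the higher, with a median log2 fold change of -0.75. Fos had 464 and 124 CPM in PBS 1 and PBS 3 and 121 and 92.9 in AML 1 and AML 3, so PBS 1 was highest of these 4 libraries. Over the whole list the sums were 3466, 4104 and 1464 CPM in PBS 1, PBS 2 (15 cells) and PBS 3, and 1019 and 1452 in AML 1 and AML 3, so PBS 3 lay close to the AML libraries. Klf6 had 131 and 49.6 against 38.4 and 33.3. With PBS 2 added, 11 of 20 genes had an unadjusted p under 0.05 in the lower direction (3.06% of all genes), 1 of them passed the adjusted test, and the median was -1.02. Without PBS 1 the median was -0.25 and 0 genes had such a p, at a setting where 0.547% of all genes did. Heat shock and endoplasmic reticulum chaperones showed 0 of 18 genes with an unadjusted p under 0.05 in each direction, and lysosome and cathepsin genes 2 higher and 1 lower of 23.

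Cell cycle genes were measured beside the phase calls. Of 28 G2M phase genes 0 passed the adjusted test, 13 had an unadjusted p under 0.05 in the higher direction and 0 in the lower, and the AML levels lay above both PBS levels in 21 (75.0%, against 17.8% of all genes). Mki67, the Ki-67 antigen of proliferating cells, had 15.8 and 18.5 in PBS and 71.3 and 34.8 in AML (1.46 ± 0.39, edgeR, adjusted p = 0.26). Top2a, the DNA topoisomerase of dividing cells, had 139 and 167 against 765 and 190, so AML 1 was far above AML 3. Without AML 1 the number with an unadjusted p under 0.05 was 6 of 28 (2.30% of all genes) and the median was 0.45, against 0.77 with all 4 libraries. With each cell thinned to 2000 UMIs it was 13 of 21 (4.26% of all genes). Of 28 S phase genes, 4 had an unadjusted p under 0.05 in the higher direction and the median was 0.35. Ccne2, a cyclin of S phase entry, had 19.9 and 20.2 in PBS and 79.5 and 28.5 in AML.

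Stem cell and megakaryocyte-erythroid genes had medians below 0, whereas lymphoid priming genes had a median of 0.11. Of 14 tested stem cell genes none passed the adjusted test, and the median log2 fold change was -0.60. An unadjusted p under 0.05 was found for 5 in the lower direction and 0 in the higher. In 12 (85.7%, against 20.1% of all genes) both AML levels lay below both PBS levels. Of the 24 listed stem cell genes, 10 were not tested because of low counts. Hlf, a transcription factor of stem cells, had 134 and 128 in PBS and 71.3 and 74.2 in AML, and Procr, the endothelial protein C receptor, had 16.9 and 11.8 against 2.74 and 5.15. Both examples were chosen after their values were seen. Of 15 tested megakaryocyte and erythroid genes, 5 had an unadjusted p under 0.05 in the lower direction and 0 in the higher, with a median of -0.54. Car2, carbonic anhydrase 2 of erythroid progenitors, had 531 and 460 in PBS and 173 and 264 in AML (-1.16 ± 0.37, edgeR, adjusted p = 0.389). Of 16 tested lymphoid priming genes, 2 had an unadjusted p under 0.05 in the higher direction and 1 in the lower. Beside these levels, in the AML libraries HSC was the runner-up class in a smaller share of the cells and MPP-2 in a larger one, and the part of either was not tested.

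Markers of mature cells were mostly too low to test. Of 17 neutrophil genes 2 were tested, and the list summed to 332 and 86.5 CPM in PBS and 70.0 and 91.2 in AML. PBS 1, with 166 S100a9 UMIs, stood apart, and the other 3 libraries lay close together. The 7 hemoglobin and late erythroid genes in the matrices summed to 666 and 62.9 in PBS 1 and PBS 3 and to 31.1 and 75.2 in AML 1 and AML 3, so PBS 1 again stood apart. Of these hemoglobin genes 1 was tested and did not pass. In the fits that leave out PBS 3, AML 1 or AML 3, and in G1 cells, 3 of 4 hemoglobin genes were lower at the adjusted threshold, and 5, 5, 3 and 5 of 7 neutrophil genes. Over all genes the numbers lower in these fits were 10 of 10672, 19 of 10640, 209 of 9272 and 9 of 9039. Each of these fits keeps PBS 1 and has 1 library in an arm. Of 14 macrophage genes none was tested, and their sum was 18.2 and 30.7 in PBS and 2.59 and 26.5 in AML. The 20 B and plasma cell genes summed to 306 and 329 in PBS and to 119 and 492 in AML, with AML 1 lowest and AML 3 highest. The 13 dendritic cell genes summed to 471 and 464 in PBS and 656 and 590 in AML. The part of such cells, or of free RNA, in these levels was not tested.

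Whether an AML effect differed between MPP-3 cells and the pooled HSC, MPP-2 and MPP-4 cells of the same clusters was tested directly. The 2 sums of each library were compared within that library. The mix of the pool changed with the library. HSC, MPP-2 and MPP-4 cells numbered 1339, 1259 and 2708 in PBS 1 and 917, 931 and 1543 in PBS 3. They numbered 22, 261 and 101 in AML 1 and 514, 654 and 1389 in AML 3. The part of this mix in the differences was not tested. Of 11073 genes tested, 30 had a different effect (0.271%), 20 with a higher and 10 with a lower log2 fold change in MPP-3 cells. The count depended on the fit and the scaling. DESeq2 called 1 gene, limma-voom, where libraries entered as random and not fixed effects, called 0 with 316 genes at an unadjusted p under 0.05, and scaling by library size alone, which moved the median of all genes by -0.12, gave 8 higher and 32 lower. Without AML 1 the count was 341 (all 30 genes shared), without AML 3 it was 39 (4 shared), and without PBS 1 or PBS 3 it was 14 and 12 (6 shared in each).

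Ly86 rose in both groups of cells, by more in MPP-3 cells in the main test. The log2 fold change was 4.01 in MPP-3 cells and 2.15 ± 0.27 in the other classes (adjusted p = 0.021, edgeR), and the difference within libraries was 1.52 ± 0.26 (adjusted p = 3.6e-04). In the sums used for that test, the other classes had 16.2 and 22.6 in PBS and 99.2 and 77.3 in AML, whereas MPP-3 cells had 10.1 and 20.7 against 358 and 127. The difference for Ly86 passed in 6 of 11 alternatives. It did not pass with DESeq2 (adjusted p = 0.088) or limma-voom with random library effects (adjusted p = 0.999), against MPP-2 cells only (1.15, edgeR, adjusted p = 0.101), without PBS 1 (1.20, adjusted p = 0.254) or in G1 cells without AML 1 (0.48, adjusted p = 1). Slpi had 9.09 and 21.6 in the other classes of PBS and 16.8 and 28.4 in those of AML, and the difference was 1.26 ± 0.23 (edgeR, adjusted p = 0.0011). It passed in 5 of 11 alternatives and was lowest against MPP-2 cells only (0.48, edgeR, adjusted p = 0.581). Myl10 had 346 and 530 in the other classes of PBS and 190 and 229 in those of AML, and its difference was -0.83 ± 0.12 (edgeR, adjusted p = 2.9e-06). Ccl5 had 22.4 and 40.3 in the other classes of PBS and 36.5 and 54.0 in those of AML, with a difference of 1.49 ± 0.32 (edgeR, adjusted p = 0.014). Of the 30 genes, 4 belonged to the fixed cell cycle lists (Ccnb2, Birc5, Ccna2 and Mki67), and each had a higher effect in MPP-3 cells, as did 20 of the 30. Those lists hold 28 S phase and 28 G2M phase genes, and 0.271% of all genes tested had a different effect. The G2M list summed to 6243 CPM in the MPP-2 cells of PBS 1, 1632 in its MPP-4 cells and 738 in its HSC cells. The part of the class mix of the pool in these 4 genes was not tested. Ccnb2, cyclin B2, had 52.2 and 71.4 in the MPP-3 cells of PBS and 113 and 91.0 in those of AML, while the other classes had 148 and 144 against 157 and 121.

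**Figure D5:**
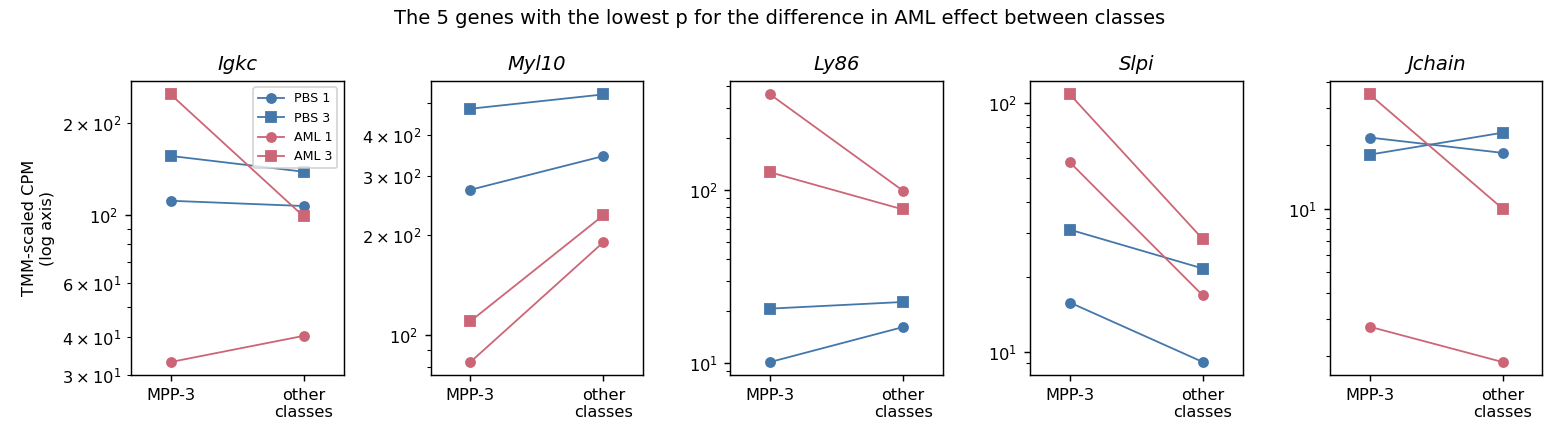
TMM-scaled CPM (log axes) in MPP-3 cells and in the pooled cells of the other 3 classes for the 5 genes with the lowest p for the difference in AML effect, with a line per library (blue PBS, red AML, circles replicate 1, squares replicate 3). The red lines of Ly86 and Slpi are higher at the MPP-3 end, while Igkc and Jchain separate AML 1 from AML 3.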

How the data were processed

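Cells were sorted from marrow on day 21 and sequenced on the 10x platform. Per the labels' processing notes the authors used Cell Ranger 7.0.1, R 4.2.2 and Seurat 4.3.0 with GRCm38/mm10, and deposited UMI counts per library and a table of annotated cells. That table holds the subpopulation, cluster and phase of each cell, a class score, and a percent of mitochondrial and of ribosomal UMIs, as deposited by the authors, and 11 of its columns were not used. The sources read do not state how doublets were handled, and no doublet caller was run. No barcode was shared between libraries among these cells, while 5 cells shared a barcode with an annotated cell of another library.

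Counts of the 1438 cells were summed per library (2474570, 143288, 1272213, 385640 and 3323859 UMIs in PBS 1, PBS 2, PBS 3, AML 1 and AML 3). A minimum of 20 cells per library left 2 against 2. Sums were tested with edgeR 4.0.16 in R 4.3.3 (TMM, filterByExpr, quasi-likelihood F test, Benjamini-Hochberg over all genes tested, threshold 0.05), which gave a biological coefficient of variation of 22.5%. DESeq2 1.42.0 and limma 3.58.1 were alternatives. Scripts were tested on simulated data. The difference between classes used a term for each library. Shares were compared by exact permutation tests. Coordinates are from GENCODE M21 (GRCm38).

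The members and gene lists were chosen with earlier results of these data known. Genes were named as follows: the 5 markers, the 10 largest rises and falls that passed with a mean log2 CPM of at least 4, the 3 lowest p of each role list, the 2 most abundant genes of each identity list, inflammatory genes named by the study, the 5 lowest p for the difference, and the 10 highest ratios in PBS with at least 20 CPM. Others are named as examples chosen after their values were seen: Ms4a4c, Prtn3, Spi1, Cd3e, Hlf, Procr and Ccnb2, Birc5, Ccna2 and Ccl5 for the difference. Replicate numbers were not said to pair mice. A gene selected by the naming rule is not reported here.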

Additional observations from a re-analysis of the deposited data

Results flagged for a closer look

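The AML effect differed between MPP-3 cells and the pool of the other 3 classes, by a test of the difference itself, in 30 of 11073 genes. The 5 genes with the lowest p are given here. The difference in log2 fold change (MPP-3 minus other classes) was 1.10 for Igkc, -0.83 for Myl10, 1.52 for Ly86, 1.26 for Slpi and 1.75 for Jchain. For Igkc, the immunoglobulin kappa constant region, the MPP-3 cells had 111 and 156 TMM-scaled CPM in PBS 1 and PBS 3 and 33.0 and 247 in AML 1 and AML 3, while the other classes had 107 and 138 against 40.2 and 98.8. Jchain, the joining chain of secreted immunoglobulin, had 21.8 and 18.1 against 2.75 and 34.9 in MPP-3 cells, and 18.4 and 23 against 1.87 and 10.0 in the other classes. Neither gene passed the test within MPP-3 cells (edgeR, adjusted p = 0.993 and 0.979), and without AML 3 the difference for Igkc was -0.38, so its direction rests on that library. Igkc and Jchain are plasma cell transcripts, and the 20 genes of the B and plasma cell list summed to 119 CPM in the MPP-3 cells of AML 1 and 492 in those of AML 3. Their part in the difference was not tested.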

How the results depend on the processing

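The comparison had 2 libraries per group, and AML 1 was shallow and stood apart. The fit over all clusters also included PBS 2, with 41 cells, so it differed from the main fit in clusters and in libraries. The number of genes that passed for AML against PBS was 10 and became 4 with DESeq2, 6 with library size only, 70 with no filter, 5 over all clusters, 17 with a score margin of at least 0.05, 1 with cells thinned to 2000 UMIs, 2 with equal numbers of cells, 18 in G1 cells without AML 1 (Ly86 alone shared with the 10, Elane at 1.17, Exoc3l2 at 0.54 and Ccl5 at 1.15), 1, 3 and 1 within clusters 0, 1 and 2, 2 without the top 5% of cells by UMIs, and 27 with PBS 2 added, the last chosen after seeing the data. It ranged from 0 to 549 when a library was left out. limma-voom gave 10. With the replicate number as a block 19 genes passed, 8 of them among the 10, and with the crossed pairing, added after seeing the data, 19. Same-numbered libraries deviated with a correlation of -0.128, so the numbers do not show pairing. For the difference between classes, 30 became 1 with DESeq2, 0 with limma-voom and the library as a random effect, 51 with no filter, 15 against MPP-4 only (10 shared), 31 against MPP-2 only (13 shared) and 31 in G1 cells without AML 1 (1 shared, chosen after seeing the data, with Igkc at 0.24), and ranged from 12 to 341 when a library was left out. Of the 10 genes, Elane alone changed direction in any alternative in which it was tested.

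Some directions turned, and the cause was not tested. The fit over all clusters differed from the main fit in including PBS 2 as well as in its clusters. Over all clusters the log2 fold change was -0.63 for Elane, -1.77 for Cd74, -1.11 for Ctss, -0.0049 for Pdia4, -2.16 for Igkc and -2.68 for Jchain. When a library was left out it ranged from -0.19 to 1.70 for H2-Aa, -0.87 to 1.98 for Cd74, -0.95 to 0.84 for Irf7, -1.97 to 0.89 for Igkc and -2.82 to 0.77 for Jchain, and the difference for Igkc from -0.38 to 1.21, in each case lowest without AML 3. Rrm2 was at -0.087 in cluster 0 and Irf7 at -0.017 in cluster 2. Igkc was also at -0.28 with limma-voom, -0.31 with the replicate block, -0.11 with the crossed block, -0.066 without PBS 1, -0.31 with the score margin, -0.46 thinned, -1.05 with equal cells, -1.19 in cluster 0 and -0.78 without the top 5% of cells. Jchain was at -0.0040 with DESeq2, -1.05 with equal cells, -0.83 in G1, -1.20 in cluster 0 and -1.0 without the top 5%. The share in cluster 1 differed by -1.13 percentage points with the score margin. When a library was left out, it ranged from -1.59 (without AML 3) to 9.94, and that in cluster 2 from -3.08 (without PBS 1) to 7.31.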

Other observations

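The 2 genes with the lowest p for AML against PBS, Ly86 and F13a1, are neighbours on chromosome 13, separated by 294963 bases in GENCODE M21. Of the 5 annotated genes between them, 4 were in the count matrices, and each had 0 UMIs in the MPP-3 cells of every library.

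Of the 10 genes that passed, the AML 1 level was above the AML 3 level in Ly86, F13a1, Ccl5, Exoc3l2, Elane and Irf8, and below it in Ms4a4c, Slpi, Anxa3 and Myl10. AML replicate 2, which has no annotated cells, holds 17055 barcodes and 7089569 UMIs in its deposited matrix and was in no comparison.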
